A study of Mus musculus with 16 samples.

Results

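TRAJ11 to TRAJ18 are neighbouring joining (J) segments in the constant-proximal part of the mouse TCRα locus, and 7 of them, TRAJ11, TRAJ12, TRAJ13, TRAJ15, TRAJ16, TRAJ17 and TRAJ18, were found joined in TCRα transcripts of CD8 T cells. Clonotypes were chosen whose best-scoring J segment was one of these 7, where a clonotype is a distinct CDR3 nucleotide sequence of one library. They numbered 15105 of 83992 clonotypes, or 17.98%, over 16 libraries. In all, 43 TRAJ segments were seen, and 1 further segment, TRDJ1 of the TCRδ chain, is the 44th of the tests below. No clonotype had equal best scores for more than 1 J segment, so each belonged to a single segment.

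All mice were on the C57BL/6 background and carried the Foxp3-GFP reporter, and they were either Themis+/+ Foxp3-GFP or Themis-/- Foxp3-GFP. Themis is a signalling protein that acts downstream of the TCR in thymocytes, and Themis-/- mice lack it in all their cells. From each genotype, mature single-positive (SP) thymocytes of the CD8 lineage and CD8 T cells of the lymph nodes (LN) were taken. Each was taken either as all CD8 cells or after sorting for Vα3.2, which the paper equates with TRAV9N-3 of the TRAV9 family. These 8 groups had 2 libraries each, and no source used here gives the age of the mice. The design text speaks of individual mice, whereas the methods describe lymph nodes of several mice of one genotype that were combined before sorting, so the p-values below measure the spread between libraries. The tables hold TCRα transcripts and no marker of cell type, so the sort could be checked only by V usage. TRAV9 made up 98.8% to 99.9% of the reads of the sorted libraries and 2.03% to 4.74% of those of all CD8 cells. This checks the family and not the single segment. Among sorted reads joined to TRAJ11 to TRAJ18, TRAV9N-3 or TRAV9D-3 took 66.0% to 100% in a library.

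The TCRα chain is made by joining a V segment to a J segment. The first joins use the J-proximal V and the V-proximal J segments, and later joins on the same allele replace them with V segments further upstream and J segments further downstream. The more often an allele has rearranged, the closer to the constant region its J segment tends to lie. CDR3, the loop formed at the V-J junction, contacts the peptide held by the MHC molecule, and enzymes trim the ends and insert bases at the junction. TRAJ18 is also the J segment of the invariant chain of natural killer T (NKT) cells, in which it is joined to TRAV11.

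The 7 germline segments are shown because their lengths and ends recur in the results below. They lie on the forward strand of chromosome 14 in GRCm38 (GENCODE M21), 13.3 to 19.7 kb upstream of TRAC, the constant segment. TRAJ14, which lies between TRAJ13 and TRAJ15, is annotated as a pseudogene and was not seen. The bases that can enter the CDR3 are in capitals and the rest of the coding sequence is in lower case.
TRAJ18, chr14:54200777-54200842: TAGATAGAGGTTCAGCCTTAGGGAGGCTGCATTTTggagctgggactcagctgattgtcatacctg
TRAJ17, chr14:54201775-54201837: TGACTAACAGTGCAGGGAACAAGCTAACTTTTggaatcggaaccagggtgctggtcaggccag
TRAJ16, chr14:54203134-54203194: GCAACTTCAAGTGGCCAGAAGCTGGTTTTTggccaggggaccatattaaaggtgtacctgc
TRAJ15, chr14:54204422-54204481: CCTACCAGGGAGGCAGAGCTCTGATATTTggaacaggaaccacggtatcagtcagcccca
TRAJ13, chr14:54205741-54205797: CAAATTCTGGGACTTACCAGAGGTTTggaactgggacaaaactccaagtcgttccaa
TRAJ12, chr14:54206553-54206610: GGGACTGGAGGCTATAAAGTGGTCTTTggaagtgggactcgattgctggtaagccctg
TRAJ11, chr14:54207139-54207197: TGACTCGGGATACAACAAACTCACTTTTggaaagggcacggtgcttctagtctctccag
The CDR3 part is 35 bases in TRAJ18 and 26 bases in TRAJ13, which are the highest and lowest values over all TRAJ segments. It is 32 bases in TRAJ17, 30 in TRAJ16, 29 in TRAJ15, 28 in TRAJ11 and 27 in TRAJ12, with a median of 30 bases over all TRAJ segments.

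The libraries of all CD8 cells held 57455 to 146191 reads, of which 9204 to 27838 carried a member segment in 920 to 2999 clonotypes. The sorted libraries were shallower, with 10338 to 25247 reads, 2159 to 7091 member reads and 20 to 404 member clonotypes. Reads were amplified by PCR without molecular identifiers, so limits from counts cover counting error only. In reads, a small number of cells with many TCRα transcripts cannot be told apart from many cells with few. Among all CD8 cells, 2 Themis+/+ libraries stood apart, LN library 1 and thymus library 2, with 4.89% and 4.62% of reads from TRAJ2 to TRAJ9 (8.52% to 14.1% in the other 6 libraries) and 16.4% and 20.9% from TRAJ48 to TRAJ61 (10.7% to 13.7%), and results that rest on them are given with and without them below.

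The 3′ end of the CDR3 set all CD8 cells apart from sorted cells in a way that touches every count of clonotypes. The last 12 bases of the CDR3 come from the J segment and should match the germline. In the 8 libraries of all CD8 cells, 51.3% to 59.0% of the member sequences of a library differed from it there at 1 or 2 positions, compared with 0% to 1% in the 8 sorted libraries. By reads, these sequences made up 31.2% to 36.9% and at most 0.0764%. Other TRAJ segments showed the same split, with 48.2% to 54.9% of sequences in all CD8 cells and 0% to 3.17% in sorted cells. The changes were not of all kinds. Among the members in all CD8 cells 54.9% were T-to-G and 38.6% G-to-T, at a few fixed positions. Counted from the CDR3's last base, position 4 of TRAJ18 read G in place of T in 36.9% of sequences and 29.1% of reads of these libraries, position 4 of TRAJ17 in 35.5% of sequences, and position 4 of TRAJ11 in 38.8%. TRAJ12 had the change T-to-G at position 5 in 36.6% of sequences, and TRAJ15 at position 5 in 36.97%. TRAJ16, with a run of T at its end, had it at position 4 in 37.4% and at position 5 in 38.1%. TRAJ13, whose end holds G at these positions, had G-to-T changes at position 5 in 19.1% of sequences and at position 7 in 18.4%.

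**Figure D1:**
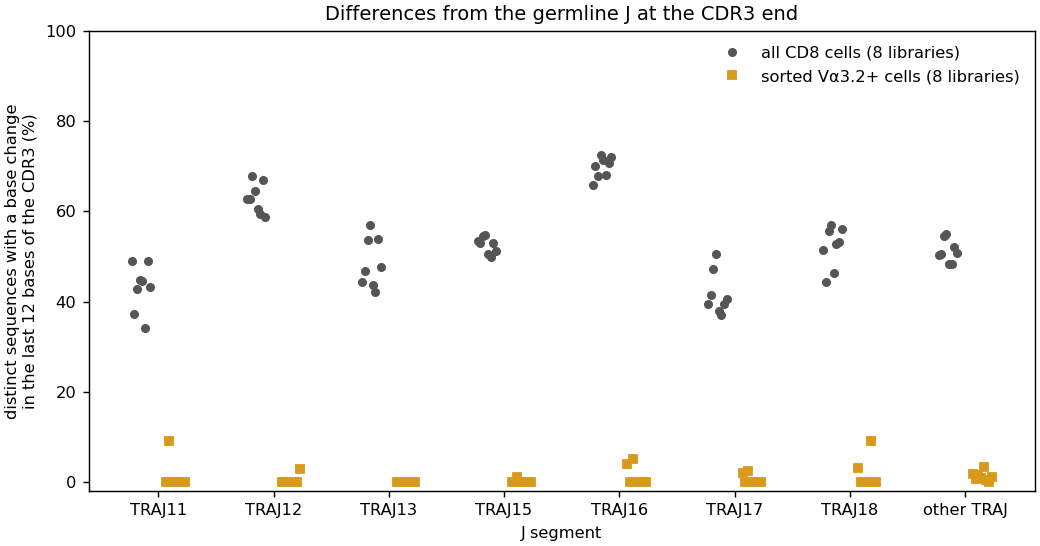
Percentage of the distinct CDR3 sequences of a library (y axis) that differ from the germline J segment at 1 or 2 of their last 12 bases, by J segment (x axis), with 1 point per library. Every library of all CD8 cells (grey circles) lies above every sorted library (orange squares), and TRAJ16 has the highest shares, 65.8% to 72.6%.

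Such sequences split a clonotype into several, and the number of splits depended on the segment. When the J end was set to the germline and identical sequences were merged, 59.6% of the TRAJ16 clonotypes of all CD8 cells were absorbed by others, 57.3% of TRAJ12, 45.6% of TRAJ15, 44.8% of TRAJ18, 43.2% of TRAJ13, 37.2% of TRAJ11 and 33.7% of TRAJ17, compared with 42.9% of the clonotypes of all other TRAJ segments. TRAJ12, for example, ranked 9th of 43 segments by reads in all CD8 cells, 4th by deposited clonotypes and 7th by merged clonotypes, and TRAJ16 ranked 36th, 22nd and 33rd. Shares of reads are not changed by the merging. Segment usage by clonotype is therefore given after merging below, whereas CDR3 features and V partners were measured over the deposited sequences unless merged ones are named. The cause of the changes was not tested.

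In all CD8 cells the 7 segments together took 10.05% to 20.7% of reads, with a median of 16.4%. TRAJ15 and TRAJ12 were used most, at 3.53% (range 2.51% to 4.85%) and 3.38% (1.43% to 5.24%) of reads on average over the 8 libraries. TRAJ17 followed at 2.27% (1.57% to 3.13%), TRAJ13 at 2.19% (0.897% to 4.57%) and TRAJ18 at 2.08% (1.30% to 2.94%). TRAJ11 at 1.25% (0.678% to 1.69%) and TRAJ16 at 1.09% (0.601% to 1.68%) were used least. Neighbours in this order overlapped in range, so their order is not resolved beyond the spread between libraries. TRAJ18 lay above TRAJ11 in each of the 8 libraries. Over these libraries the segments whose share of reads moved most like the summed share were TRAJ9, TRAJ23 and TRAJ24, at a mean absolute difference of 0.17, 0.20 and 0.31 on the log2 scale after each segment was divided by its own mean.

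**Figure D2:**
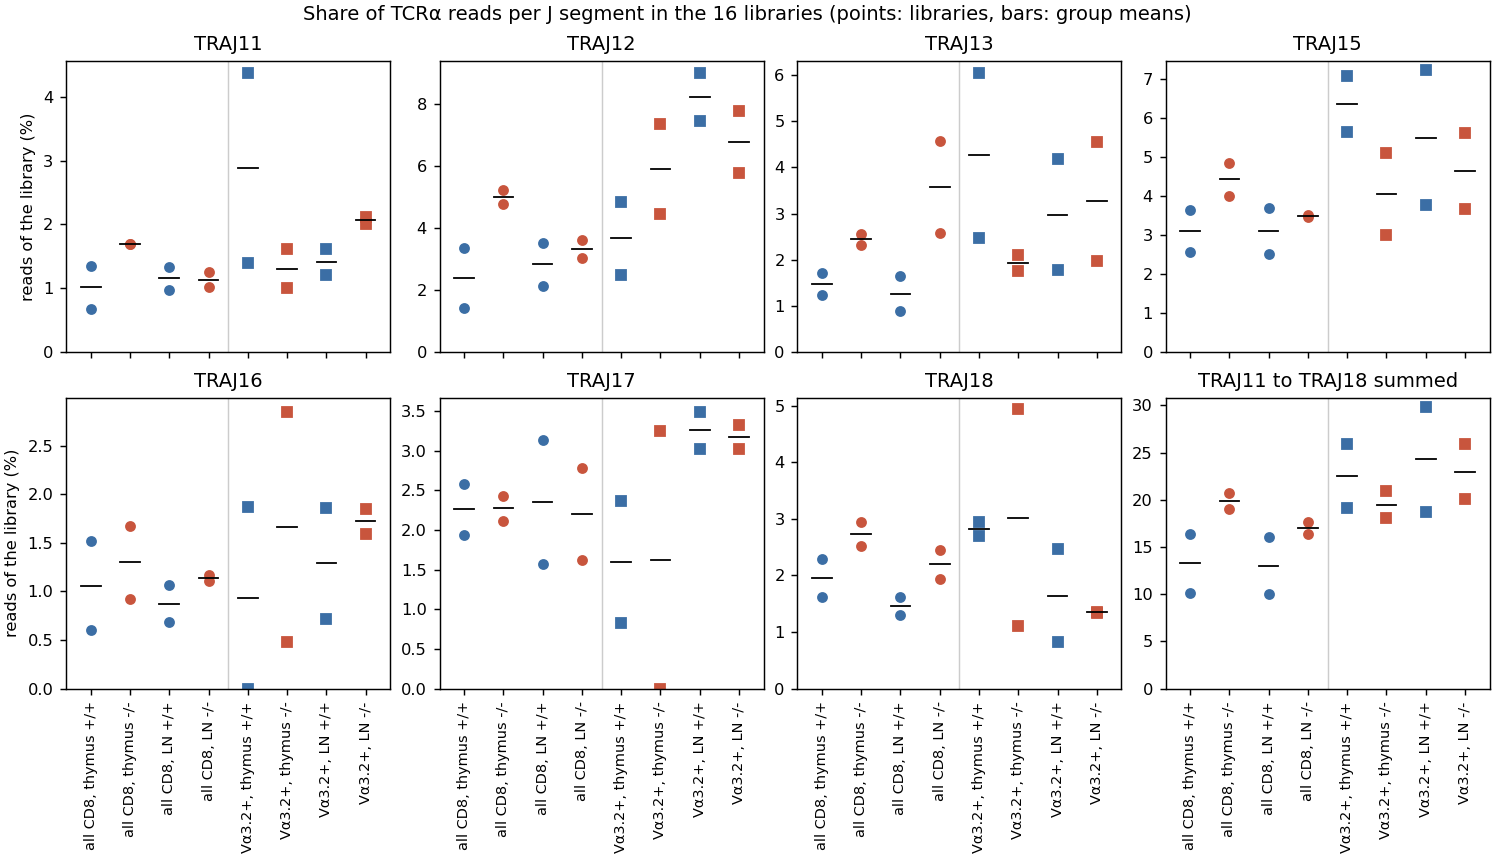
Share of the reads of each library (y axis, percent) that carry each J segment, in the 8 groups of 2 libraries (circles all CD8 cells, squares sorted Vα3.2+ cells, blue Themis+/+, red Themis-/-, black bars group means). The summed share of all CD8 cells was 16.4% and 10.1% in Themis+/+ thymocytes and 19.0% and 20.7% in Themis-/- thymocytes, and the sorted libraries spread from 18.1% to 29.8%.

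In SP thymocytes, all 7 segments had a higher fitted share of reads in Themis-/- than in Themis+/+, and none passed the test. Their reads summed to 16.4% and 10.1% of a library in Themis+/+ and to 19.0% and 20.7% in Themis-/-. The genotypes did not overlap, but Themis+/+ library 2 was far below Themis+/+ library 1. The means were 13.3% ± 4.49 (SD, n = 2) and 19.9% ± 1.17 (SD, n = 2), a log2 ratio of 0.58, and an exact two-sided permutation test gave p = 0.33, the smallest that 2 against 2 libraries allow. Without Themis+/+ library 2 the log2 ratio was 0.27.

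TRAJ12 differed most. It took 3.34% and 1.43% of reads in Themis+/+ thymocytes and 5.24% and 4.77% in Themis-/- thymocytes, so the genotypes did not overlap. Its log2 fold change was 1.11 ± 0.36 (SE), with an adjusted p of 0.227 by edgeR's quasi-likelihood test (Benjamini-Hochberg over 44 J segments). Without the low Themis+/+ library the log2 fold change was 0.64, and without the other Themis+/+ library it was 1.88. Each of these fits leaves a single Themis+/+ library that is assumed to vary like the other groups. The other 6 segments had log2 fold changes of 0.05 (TRAJ17) to 0.78 (TRAJ11), with adjusted p from 0.288 to 0.919 by edgeR. Of the 7 members 0 were called, beside 0% of all 44 segments. At an unadjusted p under 0.05, 1 member (TRAJ12) and 7 of the 44 segments passed, and DESeq2 called 0 members.

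The direction followed position in the locus. The median log2 fold change in thymocytes was 0.79 over the 6 segments TRAJ2 to TRAJ9, which lie closer to TRAC, 0.55 over the 7 members, 0.16 over TRAJ21 to TRAJ28, -0.09 over TRAJ30 to TRAJ35, -0.30 over TRAJ37 to TRAJ47 and -0.76 over TRAJ48 to TRAJ61, beside -0.03 over all TRAJ. The members are therefore not alone in their direction. Without both low libraries the order along the locus was kept with smaller values, at 0.42, 0.34, 0.19, -0.13, -0.16 and -0.31, beside -0.01 over all TRAJ. In that fit 5 of the 7 members were still higher and TRAJ16 and TRAJ17 were lower, at -0.17 and -0.13, each with an adjusted p of 0.895 by edgeR.

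In LN, 6 of the 7 segments had a higher fitted share of reads in Themis-/-, and again none passed the test. The summed share was 10.05% and 16.02% in Themis+/+ and 17.7% and 16.4% in Themis-/-. The Themis-/- libraries lay above the Themis+/+ ones, the nearest pair by a narrow margin. The means were 13.03% ± 4.22 and 17.03% ± 0.897 (SD, n = 2 each; log2 ratio 0.39; exact permutation p = 0.33), and without Themis+/+ library 1 the log2 ratio was 0.09. Without both low libraries only 3 of the 7 members were higher in LN, and their median log2 fold change was -0.03.

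TRAJ13 stood out among the LN values. It took 0.897% and 1.64% of reads in Themis+/+ and 4.57% and 2.58% in Themis-/-, without overlap, a log2 fold change of 1.59 ± 0.41 (SE; edgeR adjusted p = 0.0584). In Themis-/- library 1, a single TRAJ13 sequence with TRAV10D took 1.12% of all reads, and in library 2 one with TRAV3N-3 took 0.348%. In Themis+/+ the most abundant TRAJ13 sequence took 0.0478% and 0.162%. Counted as merged clonotypes, in which each sequence counts once, the log2 fold change was 0.88 ± 0.32 (edgeR adjusted p = 0.206), and without the 10 most abundant sequences of each library it was 1.10 in reads (adjusted p = 0.148). Without Themis+/+ library 1 the value in reads was 1.19, and without Themis-/- library 1 it was 1.01. It was 2.15 without Themis+/+ library 2 and 1.98 without Themis-/- library 2, again with a single library left in a group.

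The other members of the LN comparison had log2 fold changes from -0.02 (TRAJ17) to 0.68 (TRAJ18), with edgeR adjusted p from 0.449 to 0.961. Of the members 0 were called by edgeR, beside 0% of the 44 segments. DESeq2 called 1 member, TRAJ13, at 1.55 (adjusted p = 0.00582), and 2 of the 44 segments. At an unadjusted p under 0.05, edgeR passed 1 member and 4 segments. The median log2 fold change was 0.33 over the members, 0.94 over TRAJ2 to TRAJ9 and -0.25 over TRAJ48 to TRAJ61, beside 0.05 over all TRAJ. Without both low libraries these were -0.03, 0.59, -0.22 and 0.03.

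**Figure D3:**
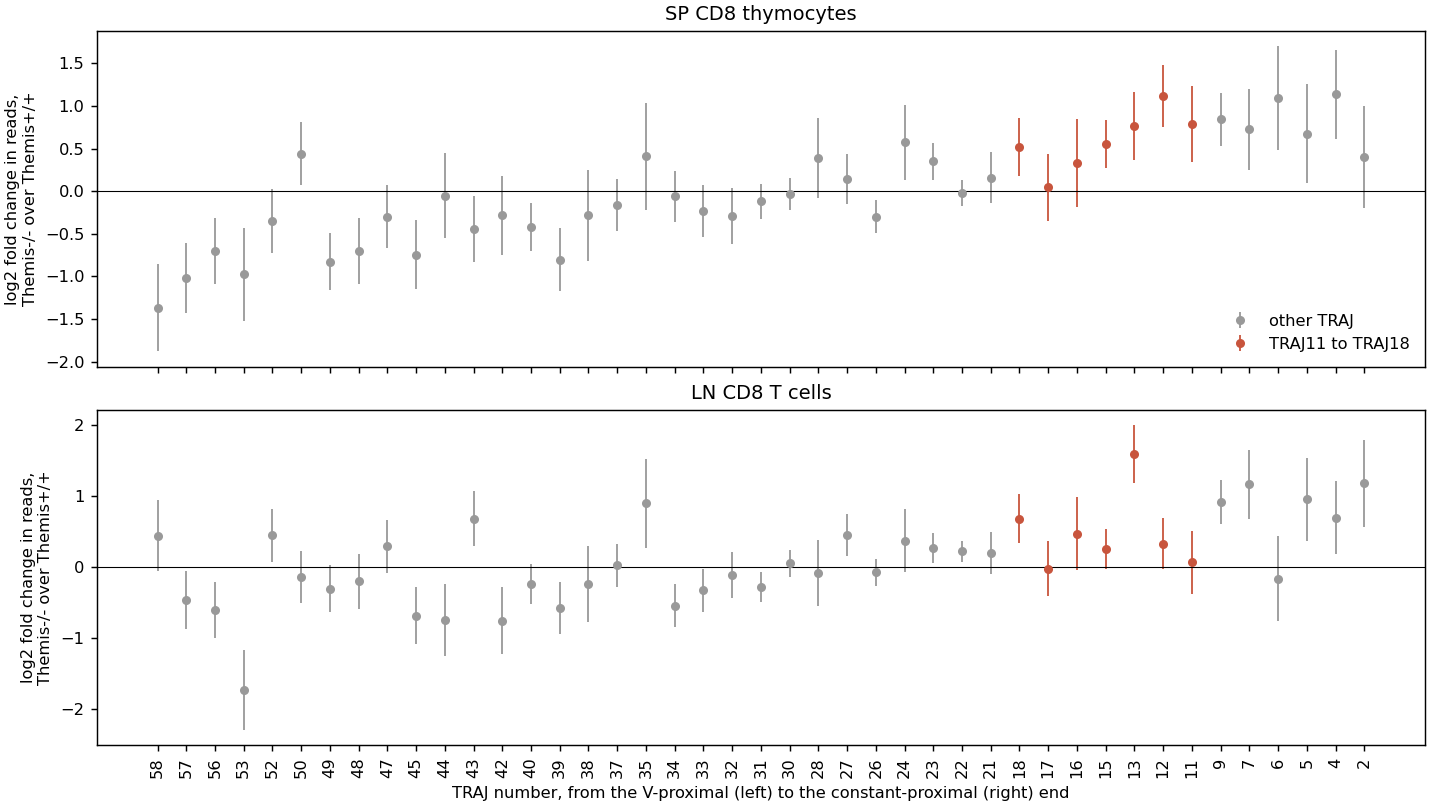
Fitted log2 fold change in reads, Themis-/- over Themis+/+ (y axis), for each TRAJ segment in order along the locus (x axis), in SP CD8 thymocytes (top) and LN CD8 T cells (bottom) of all CD8 cells, with bars of 1 standard error. TRAJ11 to TRAJ18 (red) lie from 0.05 to 1.11 in thymocytes and from -0.02 to 1.59 in LN, and none passed the adjusted threshold of 0.05.

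Thymus and LN were also compared within each genotype. In Themis+/+ the summed share was 13.3% in thymocytes and 13.03% in LN, a log2 ratio of -0.02, with overlapping libraries (exact permutation p = 0.667), and -0.04 without both low libraries. In Themis-/- it was 19.9% and 17.03%, a log2 ratio of -0.22, without overlap (exact permutation p = 0.33). By edgeR 0 members were called in either genotype (0% of 44 segments in both), 0 had an unadjusted p under 0.05, and DESeq2 called 0. The test of whether the genotype difference itself was unequal between LN and thymus also called 0 members and 0% of the segments, with an adjusted p of 0.970 for each member (edgeR). TRAJ12 at -0.79 ± 0.51 (SE) and TRAJ13 at 0.83 ± 0.56 lay furthest apart in this test. Here too 0 members had an unadjusted p under 0.05 and DESeq2 called 0.

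Sorted Vα3.2+ cells of LN used the members more than all LN CD8 cells did. In LN the summed share was 29.8% and 18.7% (Themis+/+) and 25.9% and 20.1% (Themis-/-), compared with 10.05% to 17.7% in all LN CD8 cells, and no sorted LN library overlapped with these. Sorted libraries also differed from the others in V usage, depth and the J-end changes above, and the part of each in this difference was not tested. TRAJ12 was the only member called in reads. It took 9.004% and 7.45% of reads in sorted Themis+/+ LN and 7.77% and 5.79% in sorted Themis-/- LN, beside 2.11%, 3.53%, 3.62% and 3.03% in all LN CD8 cells. The log2 fold change was 1.53 ± 0.35 (SE; edgeR adjusted p = 0.0387), and 1 of 7 members was called beside 11.4% of the 44 segments. The other 4 called segments belong to TRAJ2 to TRAJ9. The median log2 fold change was 1.95 over TRAJ2 to TRAJ9, 0.82 over the members and -1.08 over TRAJ48 to TRAJ61, beside -0.19 over all TRAJ. The summed share of TRAJ2 to TRAJ9 was also separated, at 18.2% to 25.3% in sorted LN and 4.89% to 12.1% in all LN CD8 cells. The higher share is therefore not particular to the members. TRAJ11, TRAJ13, TRAJ15, TRAJ16 and TRAJ17 had log2 fold changes from 0.75 to 0.87 with edgeR adjusted p from 0.191 to 0.739, and TRAJ18 was at 0.00.

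The call of TRAJ12 depended on the libraries and sequences kept. A fit without a single compared library leaves 1 library in a group, so only its fold change is given. Over these fits the log2 fold change ran from 1.37 to 1.68. These were the values without library 1 and without library 2 of all LN CD8 cells from Themis+/+. Without both low libraries it was 1.32 (adjusted p = 0.101). Without the 10 most abundant sequences of each library it was 1.03 (adjusted p = 0.154). DESeq2 also called TRAJ12, at 1.02 (adjusted p = 0.0158).

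Counted as merged clonotypes, 5 members were more frequent in sorted LN cells, TRAJ13 (log2 fold change 1.08 ± 0.23), TRAJ17 (0.99 ± 0.24), TRAJ12 (0.92 ± 0.19), TRAJ15 (0.88 ± 0.19) and TRAJ11 (0.88 ± 0.31), with edgeR adjusted p from 0.000179 to 0.0133. TRAJ16 at 0.61 ± 0.32 (adjusted p = 0.0869) and TRAJ18 at 0.41 ± 0.25 (adjusted p = 0.149) did not pass. The background was high, since 67.4% of the 43 segments tested were called in this comparison. With the deposited clonotypes, TRAJ12 was at 0.24 (adjusted p = 0.322) and TRAJ16 at -0.06, so merging moved both by more than their standard errors.

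In thymocytes the sorted cells had member shares of 25.9% and 19.2% in Themis+/+ and 20.9% and 18.1% in Themis-/-, compared with 16.4%, 10.1%, 19.0% and 20.7% in all CD8 cells. Only the Themis+/+ libraries were separated, at a log2 ratio of 0.77 (exact permutation p = 0.33), and the Themis-/- ratio was -0.03. By edgeR 0 members were called in reads, beside 0% of 44 segments, 0 passed at an unadjusted p under 0.05, and DESeq2 called 0. In merged clonotypes 3 members passed, TRAJ12 (0.86 ± 0.25), TRAJ15 (0.83 ± 0.24) and TRAJ13 (0.81 ± 0.33), with edgeR adjusted p from 0.00989 to 0.048, beside 39.5% of the 43 segments.

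Restricting both kinds of library to TRAV9 sequences left 0 members called in LN and in thymus, with a log2 fold change of 0.19 ± 0.57 for TRAJ12 in LN (edgeR adjusted p = 0.976), and 0 had an unadjusted p under 0.05. DESeq2 was not run on this subset. These fits took the whole TRAV9 family and not TRAV9N-3 alone. They rest on 1260 to 3399 TRAV9 reads per library of all CD8 cells. There the members took 10.5% to 34.6% of the TRAV9 reads and 12.1% to 27.7% of the merged TRAV9 clonotypes, compared with 18.1% to 29.9% and 23.6% to 27.7% in sorted libraries. The p that misses the threshold does not show that TRAV9 sequences used these segments equally in both.

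Within sorted cells no member passed the test between genotypes or tissues. TRAJ16 was not detected in Themis+/+ thymus library 1 and TRAJ17 was not detected in Themis-/- thymus library 1. A count of 0 allows up to 0.0257% and 0.0290% of the reads there, in libraries with 21 and 20 member clonotypes. The remaining members took 0.480% to 9.004% of reads. In the genotype, tissue and interaction comparisons 0 members and 0% of the 43 segments were called by edgeR, 0 members had an unadjusted p under 0.05, and DESeq2 called 0. The spread was wide, with a biological coefficient of variation of 115% compared with 30.7% in all CD8 cells. In sorted Themis+/+ cells TRAJ12 took 9.004% and 7.45% of reads in LN and 4.85% and 2.48% in thymocytes, and TRAJ17 took 3.49% and 3.02% in LN and 0.831% and 2.36% in thymocytes. Neither overlapped between the tissues. TRAJ18 was separated in the opposite direction, at 2.46% and 0.816% in LN and 2.70% and 2.94% in thymocytes. How many of all segments were separated was not counted, and 2 against 2 libraries cannot resolve such a separation. The log2 fold changes of TRAJ12 and TRAJ17 were 1.20 ± 0.58 and 1.10 ± 1.87 (SE, edgeR adjusted p = 0.985 for both). TRAJ15 took 7.08% and 5.64% in sorted Themis+/+ thymocytes and 2.99% and 5.10% in Themis-/- thymocytes, and the fitted difference was -0.65 ± 0.63 (SE). Without library 2 of sorted Themis-/- thymocytes, the library left held no TRAJ17 read, so a TRAJ17 fold change against it is set by the prior count.

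The members differed among themselves in CDR3 structure more than their genotype groups did. Over the 8 libraries of all CD8 cells, each member was compared with all other TRAJ segments of the same library by an exact two-sided sign-flip test, whose smallest p is 0.00781, adjusted over the 7 members of each measure. TRAJ18 sequences were the longest, with a median over libraries of 44.2 bases (range 43.9 to 44.8), 3.62 ± 0.338 bases (SD, n = 8 libraries) above the other TRAJ, whose library means were 40.3 to 40.8 bases. TRAJ17 was 1.48 ± 0.636 bases longer. TRAJ13 was the shortest, at 37.9 bases (37.5 to 38.2) and 2.73 ± 0.292 bases below the others. TRAJ12 fell below them by 1.59 ± 0.263 bases and TRAJ15 by 0.922 ± 0.166 bases. These 5 had the same direction in 8 of 8 libraries (exact sign-flip adjusted p = 0.0109). TRAJ11 and TRAJ16 differed by 0.107 and 0.0589 bases, in either direction between libraries (exact adjusted p = 0.556 and 0.906). TRAJ18, TRAJ17, TRAJ12 and TRAJ13 were ordered as the germline CDR3 parts shown above, whereas TRAJ11 had longer CDR3s than TRAJ15 despite its shorter germline part. After merging, the same 5 members passed.

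The members also differed in how many bases were missing from the J end at the junction. TRAJ11, which begins with TGACTC, lost 0.927 bases (median over libraries, range 0.795 to 1.39), 1.501 ± 0.231 fewer than other TRAJ, and TRAJ13 lost 1.70 bases (1.43 to 2.24), 0.789 ± 0.306 fewer. TRAJ18 lost 4.005 (3.63 to 4.70), TRAJ17 3.91 (3.59 to 4.41) and TRAJ15 3.17 (2.99 to 3.44), which was 1.55, 1.44 and 0.663 more. Each of these 5 passed (exact sign-flip adjusted p = 0.0109). TRAJ12 and TRAJ16 were 0.206 and 0.244 bases lower and did not pass (exact adjusted p = 0.0547 and 0.250). After merging TRAJ12 passed as well (exact adjusted p = 0.0273), and weighted by reads TRAJ13 did not (exact adjusted p = 0.0638).

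Inserted bases, counted between the aligned V end and J start, were fewer in 6 of the 7 members by the deposited alignments, and for 2 of these the direction turned with another way of counting. TRAJ12 had 1.54 (median, range 1.38 to 1.58), 0.555 ± 0.0754 fewer than the other TRAJ, whose means were 1.90 to 2.21. TRAJ16 had 0.551 ± 0.262 fewer, TRAJ11 0.536 ± 0.465, TRAJ18 0.443 ± 0.159, TRAJ13 0.295 ± 0.147 and TRAJ15 0.268 ± 0.145 fewer, in 7 of 8 libraries for TRAJ11 and 8 of 8 for the rest, with exact sign-flip adjusted p of 0.0182 and 0.0109. TRAJ17 was 0.125 ± 0.401 higher and did not pass (exact adjusted p = 0.484). The V and J alignments overlapped in 25.8% of member sequences, which count as having no insertion. Counted instead between the longest exact germline matches on merged sequences, the other TRAJ averaged 3.60 to 3.92 bases. TRAJ11, TRAJ13, TRAJ15 and TRAJ18 were lower in 8 of 8 libraries by this count too, whereas TRAJ16 was 2.12 ± 1.78 bases higher in 8 of 8 (exact adjusted p = 0.0109 each). TRAJ12 was 0.337 ± 0.386 higher in 7 of 8 and did not pass (exact adjusted p = 0.0547). J ends with more than 2 mismatches were not set to germline, and this count takes the germline J bases before such a change as inserted. Any J-end change was present in 75.0% of TRAJ16 and 64.9% of TRAJ12 sequences, compared with 51.8% of other TRAJ. The part of such ends in the higher TRAJ16 and TRAJ12 values was not tested.

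**Figure D4:**
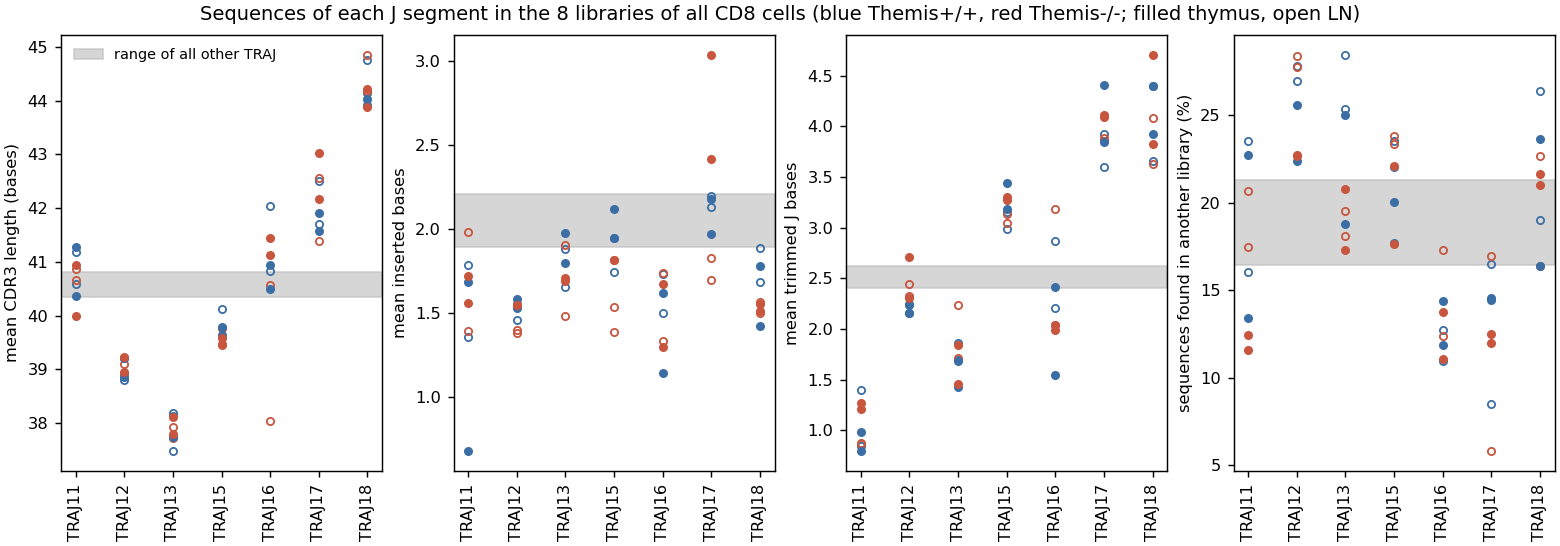
Mean CDR3 length, inserted bases, trimmed J bases and the percentage of sequences found in another library (y axes, from left to right) for each member (x axis) in the 8 libraries of all CD8 cells (blue Themis+/+, red Themis-/-, filled thymus, open LN). The grey band is the range of all other TRAJ segments over the libraries, such as 40.3 to 40.8 bases for length, and TRAJ18 lies above it and TRAJ13 below it in 8 of 8 libraries.

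The same measures showed no genotype difference that these groups could resolve. Member CDR3s of all CD8 cells averaged 40.4 and 40.4 bases in Themis+/+ thymocytes and 40.3 and 40.3 in Themis-/- thymocytes, and 40.5 and 40.2 in Themis+/+ LN and 39.9 and 40.1 in Themis-/- LN. Member CDR3s were shorter in Themis-/- in both tissues without overlap, and fell by 0.0993 and 0.402 bases (exact permutation p = 0.33 each). In thymocytes the genotypes overlapped after merging, at 40.5 and 40.7 against 40.6 and 40.4 bases, and weighted by reads they overlapped with the direction turned, at 40.6 and 40.1 against 40.3 and 40.4. In LN they did not overlap after merging and did when weighted by reads, and the direction was kept. Other TRAJ moved with them in the same libraries, from 40.6 and 40.7 to 40.5 and 40.3 in thymocytes and from 40.8 and 40.8 to 40.6 and 40.6 in LN. In sorted cells the difference was -0.519 bases in thymocytes and 0.217 in LN, with overlapping libraries. Inserted bases differed by 0.00488 in thymocytes and -0.206 in LN of all CD8 cells, and by 0.0702 and 0.0436 in sorted cells (exact permutation p from 0.33 to 1). Between exact germline matches the direction turned in LN of all CD8 cells, to 0.190, and in sorted thymocytes, to -0.260 (exact permutation p = 1 each).

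Sequences recurred between libraries unequally. A median of 26.3% of the TRAJ12 sequences of a library (range 22.4% to 28.4%) were found in at least 1 other library of all CD8 cells, compared with 16.5% to 21.3% of other TRAJ sequences, a difference of 6.99 ± 2.16 percentage points in 8 of 8 libraries (exact sign-flip adjusted p = 0.0182). TRAJ15 was 2.75 ± 2.35 points higher, in 7 of 8 libraries (exact adjusted p = 0.0410). TRAJ16 and TRAJ17 were 5.48 ± 1.76 and 5.88 ± 4.68 points lower, in 8 of 8 libraries each (exact adjusted p = 0.0182). TRAJ11, TRAJ13 and TRAJ18 did not pass. After merging, TRAJ12 was 13.02 ± 3.41 points higher and TRAJ13 also passed, at 5.01 ± 5.37 points (exact adjusted p = 0.0109 each). A shared sequence counts in every library that holds it, so the 8 values are not independent. The sign-flip test treats them as independent, so these p-values do not measure the spread between libraries.

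For each member, the deposited sequence found in the most of the 8 libraries of all CD8 cells is shown, with the bases that match the germline J in capitals, so that the junction and the J-end changes can be read. A lower-case base within the capitals is a J-end change.
TRAJ11: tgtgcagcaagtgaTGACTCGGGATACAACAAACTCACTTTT
TRAJ12: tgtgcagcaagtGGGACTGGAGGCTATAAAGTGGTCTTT
TRAJ13: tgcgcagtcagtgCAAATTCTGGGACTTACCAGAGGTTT
TRAJ15: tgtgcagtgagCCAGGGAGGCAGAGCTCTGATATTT
TRAJ16: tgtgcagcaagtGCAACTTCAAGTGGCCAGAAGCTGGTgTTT
TRAJ17: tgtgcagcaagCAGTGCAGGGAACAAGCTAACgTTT
TRAJ18: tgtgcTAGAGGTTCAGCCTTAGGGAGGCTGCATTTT
The TRAJ13 sequence, with TRAV3N-3, and the TRAJ15 sequence, with TRAV7-3, were found in 7 of 8 libraries. Those of TRAJ12, TRAJ16 and TRAJ18 were found in 6 and those of TRAJ11 and TRAJ17 in 5. After merging, 1 TRAJ13 sequence was found in all 8. The sequences of TRAJ11, TRAJ12, TRAJ13 and TRAJ16 keep the whole germline CDR3 part, and those of TRAJ15, TRAJ17 and TRAJ18 lack 4, 7 and 4 of its bases. The TRAJ16 and TRAJ17 sequences carry a J-end change at position 4, so in these segments a changed form was the most widely found. All were rare, at a mean of 0.00456% (TRAJ16) to 0.0658% (TRAJ13) of reads. The TRAJ13 sequence reached 0.348% in Themis-/- LN library 2 and 0.117% in Themis-/- thymus library 2, and lay between 0 and 0.0278% elsewhere.

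In sorted LN cells 36 sequences were found in all 4 libraries, and 11 of them (30.6%) were members, 5 of TRAJ12, 2 of TRAJ13, 2 of TRAJ15 and 2 of TRAJ17. Members made up 23.3% to 27.4% of all clonotypes of these libraries, and the difference was not tested. The 3 most abundant on average all carry TRAV9N-3 and are shown with the bases that match the germline J in capitals.
TRAJ12, first: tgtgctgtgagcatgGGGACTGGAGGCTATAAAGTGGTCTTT
TRAJ12, second: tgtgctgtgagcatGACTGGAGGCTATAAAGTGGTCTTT
TRAJ17: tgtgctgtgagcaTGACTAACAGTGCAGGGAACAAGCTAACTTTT
The first took 0.564% and 1.54% of reads in Themis+/+ and 1.66% and 0.644% in Themis-/-. The second took 0.593% and 0.663% in Themis+/+ and 0.531% and 0.463% in Themis-/-. The TRAJ17 sequence took 0.513% and 0.389% in Themis+/+ and 0.3327% and 0.00907% in Themis-/-. The genotypes overlapped for the first of these. The other 2 were lower in both Themis-/- libraries, which was not tested.

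The V partners of the members came almost entirely from outside the J-proximal end of the V cluster. TRAV17 to TRAV21, the J-proximal V segments, made up 2.51% to 5.06% of the sequences of all other TRAJ in a library of all CD8 cells. In 17 of 13762 member sequences they were present (10 of 7133 after merging), 0.124% pooled and at most 0.325% in a library. TRAJ11 and TRAJ16 had none, and the means of TRAJ12, TRAJ13, TRAJ15, TRAJ17 and TRAJ18 were 0.0694% to 0.339%. Each of the 7 members lay below other TRAJ in 8 of 8 libraries (exact sign-flip adjusted p = 0.00781), as it did after merging. Weighted by reads, TRAJ17 was lower in 7 of 8 (exact adjusted p = 0.0234) and the rest in 8 of 8. The share was graded along the locus, with a median over libraries of 13.1% in TRAJ48 to TRAJ61, 4.30% in TRAJ37 to TRAJ47, 1.33% in TRAJ30 to TRAJ35, 0.332% in TRAJ21 to TRAJ28, 0.168% in TRAJ11 to TRAJ18 and 0.216% in TRAJ2 to TRAJ9. The members therefore share their low level with the segments on either side.

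Beyond this the leading V families were shared. TRAV12, TRAV7 and TRAV6 led among the merged member sequences, at 18.9% ± 1.49, 15.8% ± 0.754 and 14.1% ± 2.03 (SD, n = 8 libraries), beside 16.7%, 12.5% and 13.3% in other TRAJ. They were also the first 3 families of each of the 7 members after merging. TRAV12 was first in TRAJ12 (16.4%), TRAJ15 (23.6%), TRAJ16 (17.7%) and TRAJ18 (21.1%), and TRAV7 in TRAJ11 (15.01%) and TRAJ13 (18.3%). In TRAJ17, TRAV6 at 19.2% and TRAV12 at 18.8% lay close together, and in deposited clonotypes TRAV12 was first. In deposited clonotypes TRAV14 was also among the first 3 of TRAJ11 (12.2%) and TRAJ16 (14.2%). TRAV8 made up 4.36% to 6.78% of merged member sequences and 2.82% to 4.25% of those of other TRAJ, ranges that do not overlap. In TRAJ17 alone TRAV8 was at 2.98%. The ranges of TRAV7 did not overlap either, at 14.9% to 16.8% in members and 10.5% to 14.0% in other TRAJ. Neither separation was tested, and how many of all V families were separated was not counted. In sorted libraries 99.6% to 100% of member reads carried TRAV9, and 66.0% to 100% carried TRAV9N-3 or TRAV9D-3, which share near-identical sequences and cannot be assigned with certainty.

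TRAV11, the V segment of the invariant NKT chain, made up 2.13% ± 1.39 of merged TRAJ18 sequences (SD, n = 8 libraries), 0.951% of those of TRAJ17 and 0.474% of those outside the members. It was joined to many J segments, and TRAJ18 took 0% to 52.9% of the TRAV11 reads of a library. The most abundant TRAV11-TRAJ18 sequence of all CD8 cells is shown as an example of the pairing. It is 45 bases long and lacks 2 bases of the J segment.
TRAV11-TRAJ18: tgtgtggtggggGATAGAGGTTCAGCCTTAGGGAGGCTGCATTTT
It was found in 2 libraries, at 0.110% of reads in Themis-/- thymus library 1 and 0.0721% in Themis+/+ thymus library 2. After merging, 4 nucleotide sequences encoded the same CDR3 of 15 residues, and together they held 84.7% of all TRAV11-TRAJ18 reads.

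The TRAV11-TRAJ18 pairing was most frequent in Themis-/- thymocytes. It had 69 and 114 reads in Themis+/+ thymocytes, 517 and 485 in Themis-/- thymocytes, 16 and 24 in Themis+/+ LN, and 0 and 3 in Themis-/- LN. These were 0.0553% and 0.116% of reads in Themis+/+ thymocytes and 0.354% and 0.419% in Themis-/- thymocytes. The genotypes did not overlap, and the means, 0.0855% ± 0.0428 and 0.386% ± 0.0462 (SD, n = 2 each), had a ratio of 4.52 (exact permutation p = 0.33). The ratio ran from 3.05 to 7.58 over single libraries of each genotype. Of the TRAJ18 reads, the pairing took 2.41% and 7.15% in Themis+/+ thymocytes and 14.1% and 14.2% in Themis-/- thymocytes. In LN it took 0.0128% and 0.0418% of reads in Themis+/+ and 0.00371% in 1 Themis-/- library, and the count of 0 in the other allows up to 0.00450%. The number of distinct sequences was small, with 4 and 2 merged clonotypes in Themis+/+ thymocytes and 5 and 7 in Themis-/- thymocytes. Sorted libraries held 0 such reads, which allows up to 0.0119% to 0.0290% of their reads. Because these cells were sorted for a TRAV9 product, this 0 follows from the sort and does not measure the pairing. Whether NKT cells entered the SP CD8 gate was not tested.

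**Figure D5:**
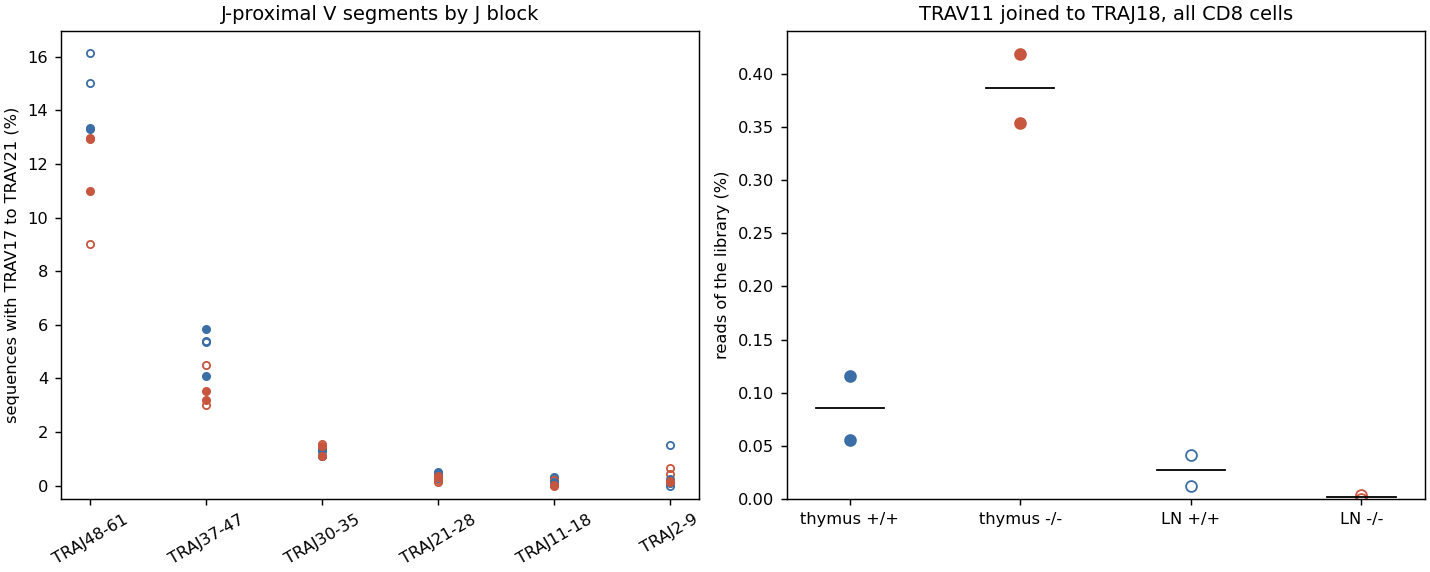
Left, percentage of the distinct sequences of a library that carry TRAV17 to TRAV21 (y axis) by block of J segments (x axis), with 1 point per library of all CD8 cells (blue Themis+/+, red Themis-/-, filled thymus, open LN). Right, share of reads with TRAV11 joined to TRAJ18 (y axis, percent) by tissue and genotype, with group means as bars. The left share falls from a median of 13.1% in TRAJ48 to TRAJ61 to 0.168% in TRAJ11 to TRAJ18, and the right one is highest in Themis-/- thymocytes, at 0.354% and 0.419%.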

How the data were processed

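TCRα repertoires of 16 libraries were analysed. The authors made cDNA by template switching, amplified it in a nested PCR with a constant-region primer, read it on a MiSeq and called clonotypes by MiXCR, of which no version is stated in these sources. The submitters' processing notes name mm9 and CASAVA 1.4. The authors deposited a raw read count for each CDR3 nucleotide sequence and its fraction of all reads in the library, without normalization. The files hold no coordinates, and segment positions and sequences came from GENCODE M21 on GRCm38.

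Counts were summed per J segment and tested by edgeR 4.0.16 with TMM factors and the quasi-likelihood test (a minimum of 10 reads in 2 or more libraries, Benjamini-Hochberg adjusted p under 0.05) in 3 fits, all CD8 cells, sorted cells and all 16 libraries. Standard errors are the fold change divided by the square root of the F statistic. DESeq2 1.42.0 was an alternative. The edgeR script was tested on simulated data. Other values were compared over libraries with exact permutation or sign-flip tests in Python 3.11.15 (numpy 2.4.6, pandas 2.3.3, scipy 1.17.1, matplotlib 3.10.9), and R was 4.3.3. Inserted bases are those between the aligned V end and J start, with overlaps set to 0. J ends with at most 2 mismatches in the last 12 bases were set to germline and identical sequences merged, an alternative added after the tables had been seen, as were leaving out the 2 low Themis+/+ libraries, a crossed replicate block and insertions counted from exact germline matches. Libraries held 10338 to 146191 reads, and their number, 2 per group, limits the precision.

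The members, lists and tests were chosen with earlier results of these data known. All 7 members are reported. V families named are the 3 highest per member, and TRAV8, TRAV9 and TRAV11 were named after their values were seen. The CDR3s printed are the most widely found per member, the 3 most abundant shared by the sorted LN libraries, and the most abundant TRAV11-TRAJ18 sequence.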

Additional observations from a re-analysis of the deposited data

Results flagged for a closer look

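No interaction test passed its threshold for a member, but in some pairs of groups every library of one contrast moved one way and every library of the other the opposite way. The differences between contrasts given here were not tested themselves. Such patterns were not counted over all J segments, so those listed cannot be told apart from the background. Full separation of groups this small gives an exact permutation p of 0.33, so it is not rare without a difference.

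TRAV11-TRAJ18 reads were higher in Themis-/- than in Themis+/+ thymocytes by 0.301 percentage points of reads, and lower in Themis-/- than in Themis+/+ LN, at -0.0254 points. The LN value rests on 16 and 24 reads in Themis+/+ and 0 and 3 in Themis-/-, from at most 1 merged clonotype per library.

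In thymocytes, TRAJ13 was higher in Themis-/- among all CD8 cells by 0.963 points and lower among sorted cells, at -2.33 points, and TRAJ15 was higher by 1.33 points and lower, at -2.32 points. Sorted minus all thymocytes of TRAJ13 was 2.78 points in Themis+/+ and -0.511 in Themis-/-. The sorted thymocyte libraries held 5 and 9 (Themis+/+) and 2 and 21 (Themis-/-) TRAJ13 clonotypes. They held 5 and 28 (Themis+/+) and 3 and 32 (Themis-/-) TRAJ15 clonotypes. By merged clonotypes TRAJ15 was at 5.95% and 7.61% in sorted Themis+/+ thymocytes and 3.49% and 6.06% in sorted Themis-/- thymocytes, which overlap. By merged clonotypes TRAJ13 was at 2.33% and 3.98% in sorted and 2.73% and 2.41% in all Themis-/- thymocytes, which overlap.

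TRAJ11 was higher in sorted than in all Themis+/+ thymocytes by 1.87 points and lower in Themis-/- thymocytes, at -0.388 points, while in Themis-/- LN it was higher by 0.929 points. Within Themis-/-, LN minus thymus for TRAJ11 was -0.555 points among all CD8 cells and 0.763 among sorted cells. The sorted Themis-/- thymocyte libraries held 2 and 11 TRAJ11 clonotypes. By merged clonotypes these TRAJ11 patterns were absent, since TRAJ11 was at 2.33% and 2.08% in sorted Themis-/- thymocytes, above the 1.69% and 1.63% of all Themis-/- thymocytes and above the 1.63% and 1.79% of sorted Themis-/- LN.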

How the results depend on the processing

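With 2 libraries per group, a coefficient of variation of 30.7% to 115% and 20 or 21 member clonotypes in the smallest libraries, small changes were not detectable. In the genotype comparisons of all CD8 cells, 0 members passed as reported. In thymus 1 (TRAJ12) passed with library totals, with only the compared libraries and with a replicate block (1.15, adjusted p = 0.00714). In LN 1 (TRAJ13) passed with library totals, DESeq2, without sequences of 1 read, with only the compared libraries and with a replicate block (1.55, adjusted p = 0.0129). Sorted minus all in LN gave 1 member as reported, 4 with deposited clonotypes, 5 with thinned or merged clonotypes, and 0 with library totals, without the 10 most abundant sequences, without the 2 low libraries and with TRAV9 only, with or without those libraries, where TRAJ12 reversed to -0.19 without them. In thymus 0 became 2 with thinned and 3 with merged clonotypes. With merged clonotypes, 67.4% of all 43 segments were called in LN and 39.5% in thymus. The replicate block changed no other call. Same-numbered libraries were not treated as paired, since no label ties them and correlations of their deviations ran from -0.238 to 0.149 among groups of all CD8 cells and from -0.306 to 0.213 between these and sorted groups. Among sorted groups they ran from 0.114 to 0.380, and library 1 had the higher summed share in all 4, but the replicate block called 0 members in sorted cells too. The paper describes the data of a genotype as coming from 2 experiments, and no label names the experiment of a library. TRAJ30 to TRAJ35 took 5.89% to 12.4% of reads in the sorted libraries numbered 1 and 21.7% to 29.6% in those numbered 2. The coefficient of variation of 115% in sorted cells may therefore include a difference between experiments, which was not tested. A crossed replicate block for LN minus thymus in Themis-/- (correlation -0.120) called 0 members.

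Summed shares moved by more than the spread between libraries in 3 contrasts. LN against thymus in Themis-/- was -0.14 with merged clonotypes (-0.22 reported) and, in sorted cells, 0.0135 without the 10 most abundant sequences (0.24). Sorted against all in Themis-/- thymus was 0.12, 0.24 and 0.28 with deposited clonotypes, merged clonotypes and without the 10 most abundant (-0.03). Within the spread, sorted LN against thymus in Themis+/+ turned from 0.11 to -0.03, -0.03 and -0.02 (deposited clonotypes, without the 10 most abundant, merged), sorted Themis-/- against Themis+/+ thymus went from -0.21 to -0.04 without the 10 most abundant, and LN against thymus in Themis+/+ from -0.02 to -0.14 merged. CDR3 length in thymus was 0.0398 weighted by reads, -0.131 without sequences of 1 read, -0.125 over amino acid sequences and -0.114 merged (-0.0993). With exact germline matches, inserted bases turned to 0.190 in LN of all CD8 cells and to -0.260 in sorted thymus. The cause was not tested.

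Single libraries were also left out in turn. Each J usage fit then has 1 library in a group, so calls from these fits are not counted here. The ranges that follow are over the libraries left out. Summed log2 ratios ran from 0.27 to 0.98 (thymus) and 0.0886 to 0.76 (LN) between genotypes, from -0.40 to 0.37 and -0.28 to -0.16 between tissues (Themis+/+, Themis-/-), in sorted cells from -0.41 to 0.02, -0.38 to 0.30, -0.27 to 0.41 and 0.04 to 0.41, and for sorted against all from 0.52 to 1.27 and 0.24 to 0.61 (LN) and 0.46 to 1.16 and -0.14 to 0.07 (thymus). Length differences ran from -0.108 to -0.0909, -0.551 to -0.252, -1.28 to 0.238 and -0.0726 to 0.506 bases (thymus, LN, sorted thymus, sorted LN), and inserted bases from -0.0903 to 0.1, -0.289 to -0.123, -0.133 to 0.273 and -0.1001 to 0.187. Against other TRAJ, 5 members passed for length, 6 for inserted bases, 5 to 6 for trimming, 7 for J-proximal V and 3 to 4 for recurrence. The library values of recurrence are not independent. No clonotype shared its best J score, so that alternative tests nothing.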
